A study of Mus musculus with 8 samples.

Results

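The 9 genes described here are transcription factors of the dorsal telencephalon, the embryonic territory that forms the cerebral cortex. *Pax6*, *Lhx2*, *Emx1*, *Emx2*, *Fezf2*, *Eomes*, *Tbr1*, *Bcl11b* and *Neurod6* were taken by symbol from a table of 26263 mouse genes, and each of the 9 was present in it. They were read in mouse embryonic stem cells (ESCs) and in neural precursor cells (NPCs) obtained from them after 12 days of *in vitro* corticogenesis, a culture protocol that drives ESCs towards cortical cells. The ESCs are hybrids of the C57BL/6 and JF1 mouse strains, derived from both directions of the cross. The B/J cells (line BJE2) carry the C57BL/6 x JF1 genotype and the J/B cells (line JBE6) the JF1 x C57BL/6 genotype, both lines are male, and none of the labels gives a further treatment or allele. PolyA RNA was sequenced in 2 libraries for each of the 4 groups, ESC B/J, ESC J/B, NPC B/J and NPC J/B, hence in 8 libraries. Each cross is represented by 1 line, so a difference between crosses cannot be told apart from a difference between lines.

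In the embryo, cortical neurons arise from dorsal progenitors in ordered steps. Radial glial progenitors express *Pax6*, *Lhx2*, *Emx1*, *Emx2* and *Fezf2*, intermediate progenitors switch on *Eomes* (also known as *Tbr2*), and the neurons they produce express *Tbr1*, *Bcl11b* (also known as *Ctip2*), *Neurod6* and, in deep layers, *Fezf2* again. Several of these factors also act outside the cortex, such as *Eomes* in trophoblast stem cells and in the primitive streak, *Bcl11b* in T lymphocytes, *Emx2* in the urogenital tract, and *Pax6* and *Lhx2* in the eye.

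The libraries held 22537138 to 32706015 reads assigned to genes. Levels are given as CPM, the reads of a gene scaled to a fixed total of assigned reads, and changes as log2 fold changes of NPCs over ESCs from edgeR's quasi-likelihood test with a Benjamini-Hochberg adjusted p over the 16399 genes tested, called at a threshold of 0.05. The labels do not say whether the 2 libraries of a group came from separate cultures, so the p-values measure the spread between these libraries, which may be technical. In bulk RNA, fewer cells of a type and less RNA per cell cannot be told apart. The stages differed as labelled, since the pluripotency gene *Pou5f1* was read at 1351 to 1950 CPM in ESCs and at 19.5 to 58.9 CPM in NPCs, and the neural precursor gene *Nes* at 12.5 to 40.9 CPM in ESCs and at 75.9 to 297 CPM in NPCs. The J/B replicate 2 library of NPCs stood apart in most of the 9 factors, and the changes between stages are also given without it where they depend on it.

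The sequence upstream of each start was read from the GRCm39 genome, the build used for alignment, as the 250 bases before the start of the canonical transcript in the GENCODE vM39 annotation. The windows of *Neurod6* (no count in ESCs), *Lhx2* (the lowest adjusted p of the 9) and *Eomes* (no rise) are printed 5′ to 3′ on the strand of the gene, because these genes show the contrasting patterns reported below. The *Neurod6* window lies at chr6:55658327-55658576 on the minus strand, within an exon of the opposite-strand long non-coding RNA *Gm3279*. The *Lhx2* window lies at chr2:38240521-38240770 on the plus strand, within introns of longer *Lhx2* transcripts, and the *Eomes* window at chr9:118307030-118307279 on the plus strand. Capitals mark the E-box CAGATG, a sequence bound by proneural basic helix-loop-helix factors, the family to which *Neurod6* belongs.
Neurod6: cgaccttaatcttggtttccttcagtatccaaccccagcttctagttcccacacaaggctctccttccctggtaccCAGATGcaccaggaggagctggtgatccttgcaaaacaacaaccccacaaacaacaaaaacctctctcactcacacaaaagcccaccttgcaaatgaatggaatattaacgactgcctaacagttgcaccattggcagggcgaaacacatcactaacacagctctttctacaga
Lhx2: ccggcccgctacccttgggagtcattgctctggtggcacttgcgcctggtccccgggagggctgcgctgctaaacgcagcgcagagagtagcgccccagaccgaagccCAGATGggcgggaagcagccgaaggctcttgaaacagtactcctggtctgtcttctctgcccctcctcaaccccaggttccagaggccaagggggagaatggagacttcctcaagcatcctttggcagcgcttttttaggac
Eomes: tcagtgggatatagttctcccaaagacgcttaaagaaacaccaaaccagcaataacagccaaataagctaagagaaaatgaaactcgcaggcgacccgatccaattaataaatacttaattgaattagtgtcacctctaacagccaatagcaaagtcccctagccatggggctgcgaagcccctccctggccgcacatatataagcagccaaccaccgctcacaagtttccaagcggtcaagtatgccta

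3 kinds of letters were searched on both strands of all 9 windows, CAGATG or CAGCTG for the E-box, TAATTA for homeodomain proteins such as the products of *Emx1*, *Emx2* and *Lhx2*, and GGTGTGA for T-box proteins such as the products of *Tbr1* and *Eomes*. None of the letters searched overlaps with another on the windows where they were found. The E-box was present in 2 of the 9 windows, at 174 to 169 bases before the start in *Neurod6* and at 142 to 137 bases in *Lhx2*, and in 23.1% of the windows of 21770 genes. TAATTA was present in the *Tbr1* window alone among the 9, at 33 to 28 and again at 18 to 13 bases before the start, and in 5.18% of all windows. GGTGTGA was present in the *Emx2* window alone, at 198 to 192 bases before the start, and in 3.23% of all windows. The GC content of the windows ranged from 45.2% in *Tbr1* to 66.8% in *Emx2*, around a median of 53.2% over all genes, and the number of CpG dinucleotides from 3 in *Neurod6* to 17 in *Bcl11b*, around a median of 8. These matches describe letters in 250 bases and no binding was measured.

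Between the stages, 7 of the 9 factors rose and none fell past the threshold, where 37.5% of the 16399 genes tested were called higher and 31.9% lower. *Lhx2*, *Emx1*, *Emx2*, *Fezf2*, *Tbr1*, *Bcl11b* and *Neurod6* rose, *Pax6* was higher without passing the test, and *Eomes* was lower without passing it. The median log2 fold change of the 9 genes was 5.02, beside 0.17 over all genes, and *Neurod6* taken at its lower bound (below) leaves this median in place. Every NPC library was above every ESC library for the same 7 genes and not for *Pax6* and *Eomes*, and this was true of 46.9% of the 14091 genes with a mean of at least 1 CPM. Without NPC J/B replicate 2, 6 factors rose, *Emx1* lost its call and *Eomes* was called lower. All 9 passed the filter on low counts, but with the ESC libraries alone only *Pax6*, *Lhx2*, *Eomes* and *Bcl11b* would have passed. *Emx1*, *Emx2*, *Fezf2*, *Tbr1* and *Neurod6* thus entered the test through their NPC reads, and their direction is partly fixed by that.

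**Figure D1:**
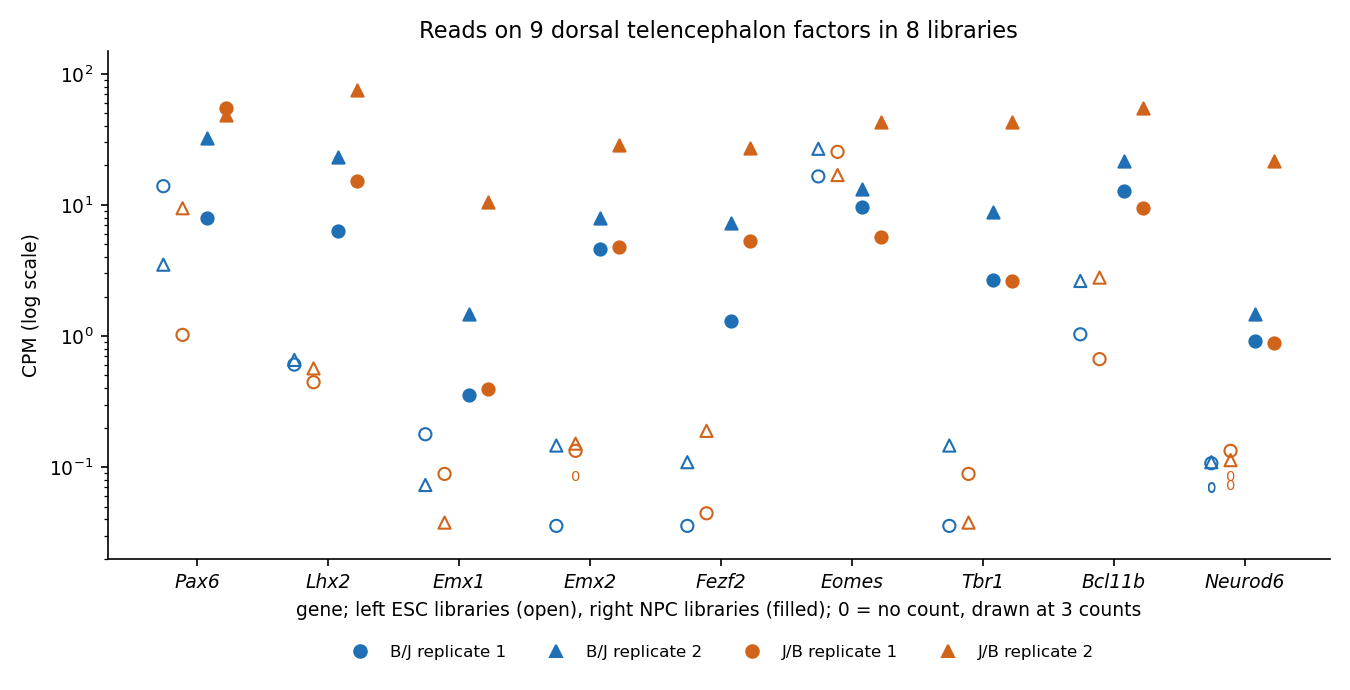
CPM of the 9 factors on a log axis in the 4 ESC libraries (open, left of each gene) and the 4 NPC libraries (filled, right), coloured by cross and shaped by replicate; an open mark with 0 beneath it had no count and is drawn at 3 counts. *Eomes* and *Pax6* overlap between stages, and J/B replicate 2 (filled orange triangle) is the highest NPC library for every gene but *Pax6*.

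Of the radial glial factors, *Lhx2* had the steadiest ESC level. *Lhx2* (chr2:38229293-38259759, plus strand, 5 exons in its canonical transcript) encodes a LIM homeodomain protein that gives cells their cortical identity and is also needed for the eye. It was read at 0.605, 0.657, 0.444 and 0.566 CPM in ESC B/J replicates 1 and 2 and ESC J/B replicates 1 and 2 (10 to 18 counts each). In NPCs it was read at 6.36, 23.1, 15.3 and 75.8 CPM in the same order. The lowest NPC library was thus above the highest ESC library, while the NPC libraries differed among themselves far more than the ESC libraries did. The log2 fold change was 5.02 (SE 0.667, adjusted p = 3.70e-04 from edgeR) and 4.25 without NPC J/B replicate 2. On library totals the pooled counts, 60 in ESCs and 3255 in NPCs, gave a 49.0-fold ratio (95% exact interval 38.0 to 64.4, counting error only), and a 25.4-fold ratio without NPC J/B replicate 2.

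*Emx2* and *Emx1*, the homeobox genes that pattern the cortical sheet, were close to silent in ESCs. *Emx2* (chr19:59446804-59453789, plus strand, 3 exons) had 1, 4, 0 and 4 counts in the 4 ESC libraries, at most 0.151 CPM. In NPCs it was read at 4.61, 7.94, 4.74 and 28.7 CPM. Its 2 stages did not overlap, and 3 of the 4 NPC libraries lay within 4.61 to 7.94 CPM with J/B replicate 2 above them. The log2 fold change was 6.38 (SE 0.897, adjusted p = 4.94e-04 from edgeR). The value fell to 5.48 once NPC J/B replicate 2 was dropped. Leaving out ESC J/B replicate 2, which held 4 of the 9 ESC counts, gave 8.62, a value that depends on the prior count because the other ESC J/B library had no count.

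*Emx1* (chr6:85164420-85181444, plus strand, 3 exons), a classical marker of the dorsal telencephalon, had the lowest NPC mean of the 9 per kilobase of exon (1.46 ± 2.26 CPM per kilobase, SD, n = 4 libraries). It had 5, 2, 2 and 1 counts in ESCs and 11, 39, 13 and 270 counts in NPCs, or 0.357, 1.47, 0.397 and 10.5 CPM. J/B replicate 2 held 82.5% of the CPM summed over the 4 NPC libraries, and the other NPC libraries were still above all ESC libraries. *Emx1* rose by 4.10 on the log2 scale (SE 1.14, adjusted p = 0.0130 from edgeR). The value was 2.23 without NPC J/B replicate 2 (adjusted p = 0.0644), 3.85 without ESC B/J replicate 2 (adjusted p = 0.0503) and 3.05 with limma-voom (adjusted p = 0.0894), so this call rested on single libraries and on the method. Urogenital markers, a tissue in which *Emx2* also acts, moved in both directions, with 3 of 6 higher and 3 lower. Their summed level was 2.53 to 5.07 CPM in ESCs and 53.1 to 102 CPM in NPCs, with *Foxd1* at 42.6 to 69.1 CPM, *Osr1* at 5.66 to 29.1 CPM and *Wt1* at 0.507 to 0.941 CPM in NPCs, and their part in the *Emx2* reads was not tested.

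*Pax6* varied 13.6-fold among the ESC libraries, more than its mean changed between stages. *Pax6* (chr2:105499234-105530952, plus strand, 12 exons), the paired-domain factor of radial glia and of the eye, was read at 13.9, 3.50, 1.02 and 9.43 CPM in the 4 ESC libraries. In NPCs it was read at 7.95, 32.2, 54.9 and 48.3 CPM. NPC B/J replicate 1 was below 2 of the ESC libraries, and the highest level was in J/B replicate 1 rather than replicate 2. The mean went from 6.96 ± 5.81 CPM in ESCs to 35.8 ± 20.9 CPM in NPCs (SD, n = 4 libraries each). The log2 fold change was 1.77 (SE 0.733, 95% interval 0.07 to 3.48), with an unadjusted p of 0.0431 and an adjusted p of 0.0606 from edgeR.

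The call of *Pax6* depended on the scaling, the tool and single libraries. It passed with library totals (2.25, adjusted p = 0.0292), with scaling to *Gapdh*, *Gusb* and *Tbp* (2.40, adjusted p = 0.0272), with DESeq2 (1.80, adjusted p = 0.0104) and with limma-voom (2.08, adjusted p = 0.0300). In edgeR it also passed when any of 3 libraries was left out, ESC B/J replicate 1 (2.46), ESC J/B replicate 2 (2.92) or NPC B/J replicate 1 (2.10). It did not pass when any of the other 5 was left out, and the value was lowest without NPC B/J replicate 2 (1.12, adjusted p = 0.221), with 1.35 without ESC J/B replicate 1 and 1.43 without ESC B/J replicate 2. The choice of scaling mattered because it shifted all genes, whose median log2 fold change was 0.17 with the TMM factors used here, 0.65 with library totals and 0.80 with the 3 reference genes. The same reference genes scale the study's RT-qPCR. Counted that way in the RNA-seq, *Pax6* was at 10.6%, 2.68%, 0.722% and 7.28% of their geometric mean in ESCs and at 5.88%, 26.8%, 45.5% and 45.9% in NPCs. The NPC mean on the log scale was 6.86-fold higher (log2 difference 2.78), with p = 0.0857 when the 4 and 4 libraries were exchanged in all ways (exact permutation, two-sided), where 0.0286 is the smallest p that can be reached. Of the reference genes, *Gapdh* fell by 1.43 and *Tbp* by 0.69 on the log2 scale.

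Reads on *Pax6* can be shared with a neighbour. The 3′ part of *Elp4*, a gene on the opposite strand, shares 3393 bases of annotated exons with *Pax6*, and no source used here says whether the strand was used in counting, so reads of these bases cannot be told apart. *Elp4* had 371 to 521 counts in ESCs and 673, 700, 1162 and 731 counts in NPCs. Likewise, *Emx2os* shares 418 bases with *Emx2* on the opposite strand, and it had no count in ESCs and 30, 48, 35 and 105 counts in NPCs. *Neurod6* shares 635 bases with *Gm3279*, which had at most 1 count in any library. Of the markers of the eye and diencephalon, where *Pax6* and *Lhx2* also act, 3 of the 6 tested were higher and none lower, and the list summed to 6.23 to 10.5 CPM in ESCs and 31.6 to 49.8 CPM in NPCs. Most of that sum was *Tcf7l2*, at 28.4 to 43.5 CPM in NPCs, while the photoreceptor gene *Crx* was at 0.487 to 2.86 CPM and the eye field gene *Rax* at 0.273 to 0.489 CPM. The part of such cells in the *Pax6* and *Lhx2* reads was not tested.

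*Fezf2* (chr14:10121574-10127680, plus strand, 4 exons), a zinc finger factor of early forebrain progenitors and later of subcerebral projection neurons, had 1, 3, 1 and 5 counts in ESCs. In NPCs it was read at 1.30, 7.26, 5.32 and 27.4 CPM. All 4 NPC libraries were above the ESC maximum of 0.189 CPM, with B/J replicate 1 the lowest. The log2 fold change was 5.95 (SE 0.931, adjusted p = 8.42e-04 from edgeR) and 5.15 without NPC J/B replicate 2. The pooled ratio on library totals was 100-fold (95% exact interval 54.2 to 209), and 47.2-fold without that library.

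*Eomes* was the one factor with a clear level in ESCs and no higher level in NPCs. *Eomes* (chr9:118307280-118315200, plus strand, 6 exons), the T-box factor of intermediate progenitors, was read at 16.5, 26.8, 25.4 and 16.9 CPM in ESCs (448 to 734 counts). In NPCs it was read at 9.67, 13.2, 5.72 and 42.7 CPM. In 3 NPC libraries it was below every ESC library, and in J/B replicate 2 it was above every one of them. The means were 21.4 ± 5.45 CPM and 17.8 ± 16.9 CPM (SD, n = 4 libraries each). The log2 fold change was -0.85 (SE 0.543, 95% interval -2.11 to 0.41, adjusted p = 0.195 from edgeR). The value was -0.36 with library totals, -0.16 with scaling to the reference genes and -0.12 in the libraries numbered 2 alone. Without NPC J/B replicate 2 it was -1.88 (adjusted p = 0.00240), so a single library decided whether *Eomes* was called lower.

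Markers of the other cells that use *Eomes* also moved between the stages. All 11 trophoblast markers rose, from a summed 15.4 to 82.6 CPM in ESCs to 3583, 1851, 1925 and 1280 CPM in NPCs. The placental genes *Tpbpa* and *Plac1* were at 171 to 450 CPM and 31.8 to 140 CPM in NPCs. The stem cell gene *Elf5* among them was read at 0.734 to 1.79 CPM in NPCs and *Cdx2* at 23.3 to 92.4 CPM. Of 10 primitive streak and endoderm markers 5 rose, among them *Foxa2*, and 2 fell, *Mixl1* and *Evx1*. *Mixl1* was at 0.392, 11.6, 0.666 and 5.24 CPM in ESCs and at most 0.275 CPM in NPCs. The summed trophoblast level was lowest in J/B replicate 2, where *Eomes* was highest. The part of these cells in the *Eomes* reads was not tested.

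*Eomes* made up most of the summed level of the 9 factors in ESCs and a minority of it in NPCs. In CPM per kilobase of summed exon length, a scale on which genes can be set side by side, it held 76.8% to 95.5% of their level in ESC libraries and 10.8% to 28.0% in NPC libraries. These shares are descriptions of the libraries and carry no test. They depend on the length used, which for *Pax6* is 16047 bases of summed exons and 5813 in its canonical transcript.

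The 3 neuronal factors were low or absent in ESCs and present in every NPC library. *Tbr1* (chr2:61633274-61644458, plus strand, 6 exons), the T-box factor of early born layer 6 and subplate neurons, had 1, 4, 2 and 1 counts in ESCs. In NPCs it was read at 2.66, 8.80, 2.63 and 42.6 CPM (82, 234, 86 and 1091 counts). The lowest NPC value was above the ESC maximum of 0.146 CPM, and both replicate 2 libraries were above both replicate 1 libraries. *Tbr1* rose by 6.70 on the log2 scale (SE 1.12, adjusted p = 0.00116 from edgeR), and by 5.15 without NPC J/B replicate 2. Cajal-Retzius cells, early neurons at the cortical surface, also express *Tbr1*. Of 6 of their markers 5 rose, with a summed level of 4.38 to 9.81 CPM in ESCs and of 103, 251, 188 and 475 CPM in NPCs. *Reln* among them was at 3.34, 27.4, 26.2 and 144 CPM in NPCs, and their part in the *Tbr1* reads was not tested.

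*Bcl11b* (chr12:107876656-107970417, minus strand, 3 exons), the zinc finger factor of layer 5 neurons and of T lymphocytes, was already measurable in ESCs. It was read at 1.03, 2.63, 0.666 and 2.79 CPM in ESCs and at 12.7, 21.5, 9.45 and 55.3 CPM in NPCs. The stages did not overlap, and J/B replicate 2 was again the highest. The log2 fold change was 3.25 (SE 0.684, adjusted p = 0.00361 from edgeR) and 2.37 without NPC J/B replicate 2. T lymphocyte markers summed to 14.7 to 20.8 CPM in ESCs and 7.12 to 10.7 CPM in NPCs, nearly all of it *Lck* (6.75 to 9.61 CPM in NPCs), while in NPCs *Cd3e* was at most 0.113 CPM and *Ptprc* at most 0.117 CPM. Of their 6 genes, 3 could be tested. Among these, *Cd3e* and *Lck* fell, and *Rag1* rose from no count in ESCs to between 0.183 and 1.07 CPM.

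*Neurod6* (chr6:55654807-55658326, minus strand, 2 exons), a basic helix-loop-helix gene switched on in postmitotic cortical neurons, had no count in any of the 4 ESC libraries. A count of 0 allows a level of up to 0.107, 0.109, 0.133 and 0.113 CPM in these libraries (3 counts each). In NPCs it had 28, 39, 29 and 552 counts, or 0.909, 1.47, 0.887 and 21.5 CPM. J/B replicate 2 thus held 86.8% of the summed NPC level, and the other 3 libraries lay close together. With 3 counts over the 4 ESC libraries as the floor, the NPC level of *Neurod6* was at least 195-fold higher when scaled by library totals. With TMM factors it was at least 140-fold higher. On library totals and with NPC J/B replicate 2 left out, it was at least 37.1-fold higher. The rise was called by edgeR (adjusted p = 0.00538), a p that belongs to edgeR's own estimate and not to these bounds.

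**Figure D2:**
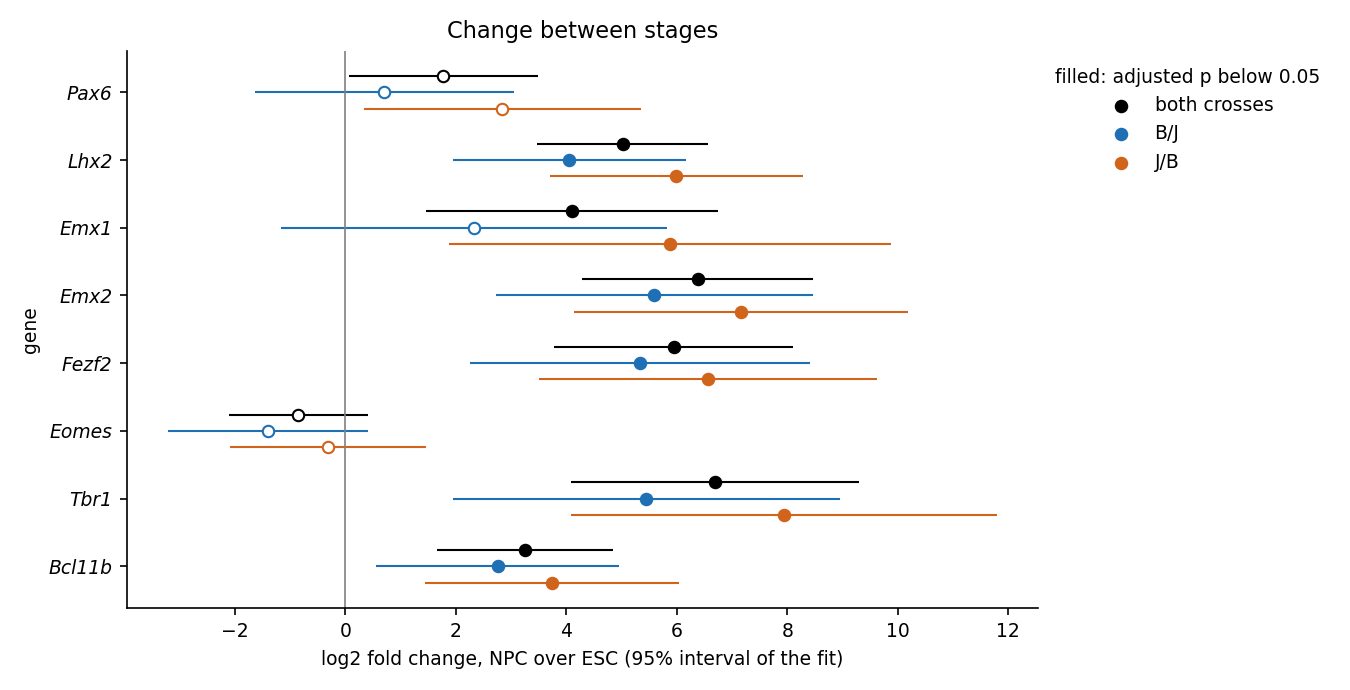
Log2 fold change of NPCs over ESCs with its 95% interval (x axis) for 8 of the factors (y axis) over both crosses (black), in B/J (blue) and in J/B (orange); filled points had an adjusted p below 0.05 in edgeR. *Neurod6*, with no count in ESCs, has no finite fold change and is left out. All intervals of *Eomes* include 0, and the J/B estimate is above the B/J estimate for each of the 8 genes.

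Within each cross, the same question was asked with 2 libraries per stage. In B/J, 5 of the 9 factors rose (*Lhx2*, *Emx2*, *Fezf2*, *Tbr1* and *Bcl11b*), where 30.1% of genes were called higher. Their log2 fold changes there ranged from 2.76 for *Bcl11b* (SE 0.949, adjusted p = 0.0391 from edgeR) to 5.59 for *Emx2* (SE 1.23, adjusted p = 0.00679). *Neurod6* in B/J was at least 21.6-fold higher on library totals. The edgeR test of its change there, which does not test this bound, had an adjusted p of 0.0527, and 10 of 19 alternatives called it. In the same comparison, *Emx1* had a log2 fold change of 2.33 (adjusted p = 0.218), *Pax6* of 0.71 (adjusted p = 0.571) and *Eomes* of -1.39 (adjusted p = 0.161). In a fit of only the 4 B/J libraries *Neurod6* was called higher (adjusted p = 0.00310) and the same -1.39 for *Eomes* was called lower (adjusted p = 0.0109). Leaving out either NPC J/B library also made *Eomes* a call (adjusted p = 0.0181 and 0.0203). In J/B, 7 of the 9 factors rose, all but *Pax6* and *Eomes*, where 29.1% of genes were called higher. *Tbr1* was at 7.94 there (SE 1.66, adjusted p = 0.00566) and at 4.84 without NPC J/B replicate 2 (adjusted p = 0.0177), and *Pax6* had 2.84 (SE 1.08, adjusted p = 0.0554). *Pax6* was called in a fit of only the J/B libraries (2.83, adjusted p = 0.0426) and without ESC J/B replicate 2, where the value was 5.14 (adjusted p = 0.0160), and it was 2.01 (adjusted p = 0.149) without ESC J/B replicate 1. The number that rose in B/J was unstable. It was 1 with limma-voom (*Emx2*), and with 1 library left in a group it was 0 without ESC B/J replicate 1, 2 without ESC B/J replicate 2 and 3 without NPC B/J replicate 2. In such a fit the lone library is assumed to vary like those of the other groups. The estimates of the 5 factors stayed high where calls were lost, at 2.82 to 5.53 with limma-voom and 2.25 to 4.95 without ESC B/J replicate 1. In J/B, 5 rose with limma-voom, where *Emx1*, *Tbr1* and *Bcl11b* lost their call and *Pax6* gained one. There, 5 also rose when ESC J/B replicate 1 was left out, and 5 rose with *Eomes* called lower (-2.38, adjusted p = 0.0136) when NPC J/B replicate 2 was left out.

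The change between stages was not shown to differ between the crosses for any factor. *Neurod6*, with no count in ESCs, could not be tested for this. In the interaction of stage and cross, 0 of the other 8 factors and 0 of all genes (0%) were called by edgeR, with 0 of the 8 and 573 genes at an unadjusted p under 0.05. limma-voom also called no gene, and DESeq2 called 11, none of them among the 9. The interaction was 2.49 (SE 2.40, 95% interval -3.09 to 8.07) for *Tbr1*, 3.55 (-1.78 to 8.89) for *Emx1* and 1.94 (-0.90 to 4.78) for *Lhx2*, so these intervals leave room for large differences in either direction.

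Between crosses within a stage, none of the 9 was called. In ESCs, edgeR called 0 genes (0%), with 346 genes and none of the 8 factors other than *Neurod6*, which had no count there, at an unadjusted p under 0.05, limma-voom called 0 and DESeq2 10, none of them among the 9. In NPCs, edgeR called 1 gene of 16399 (0.00610%) with 1050 at an unadjusted p under 0.05, limma-voom called 1 and DESeq2 70, again without any of the 9. All 9 were higher in J/B than in B/J NPCs in their estimates, from 0.87 for *Bcl11b* (95% interval -1.16 to 2.90) to 3.18 for *Neurod6* (-0.29 to 6.65), and the lowest adjusted p was 0.770. For 6 of the 9 this direction rested on J/B replicate 2, since J/B replicate 1 was below the B/J mean in CPM (*Emx1*, *Emx2*, *Tbr1*, *Eomes*, *Bcl11b* and *Neurod6*). The J/B mean of NPCs combines the library with the highest level of 8 factors and the library with the lowest level of 4.

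J/B replicate 2 was the highest of the 4 NPC libraries for 8 of the 9 genes, where it was the highest for 33.6% of the 14296 genes with a mean of at least 1 CPM in NPCs. B/J replicate 1 was the lowest for 5 of them (*Pax6*, *Lhx2*, *Emx1*, *Emx2* and *Fezf2*) and J/B replicate 1 for the other 4 (*Eomes*, *Tbr1*, *Bcl11b* and *Neurod6*), where these libraries were the lowest for 39.4% and 22.5% of the same genes. From replicate 1 to replicate 2 of J/B, the log2 level differed by 4.46 for *Neurod6*, 4.45 for *Emx1*, 3.96 for *Tbr1*, 2.87 for *Eomes* and -0.20 for *Pax6*. In B/J the same difference was 2.36 for *Fezf2*, 1.96 for *Pax6* and 1.80 for *Lhx2*, and it was 0.60 for *Neurod6*, 0.39 for *Eomes*, 0.71 for *Bcl11b* and 0.73 for *Emx2*. *Fezf2* and *Pax6* thus differed most between the B/J libraries, and *Neurod6* and *Emx1* between the J/B libraries, with no test, since each cross has 1 pair of libraries.

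**Figure D3:**
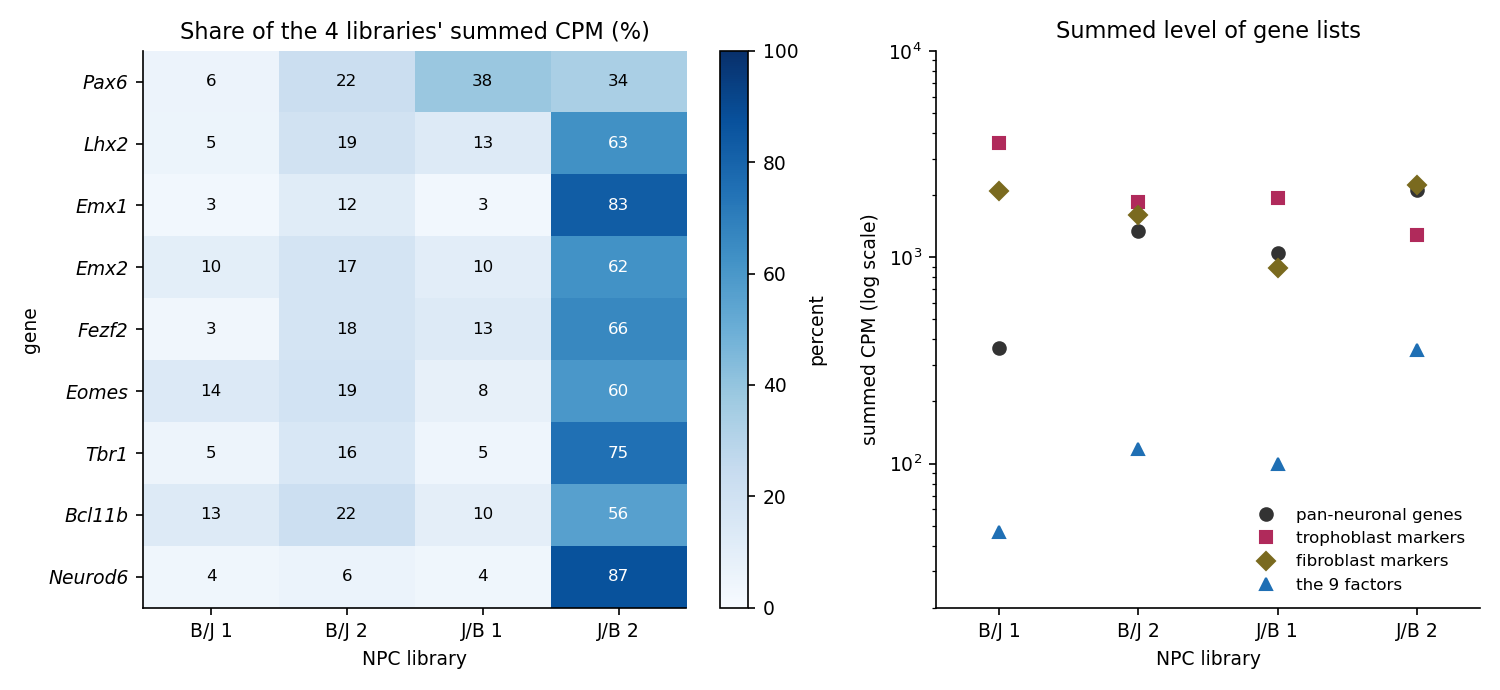
Left, the share of each factor's CPM summed over the 4 NPC libraries that each library holds (percent, columns are libraries and rows are genes). Right, the summed CPM (log axis) of the 9 factors and of 3 marker lists in the same libraries. J/B replicate 2 holds 55.9% to 86.8% of the level of 8 factors and 33.7% of that of *Pax6*, and it has the highest sum of pan-neuronal genes and the lowest sum of trophoblast markers.

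Markers of other cell types also varied over the NPC libraries. The 9 factors summed to 46.5, 117, 99.3 and 353 CPM in NPC B/J replicates 1 and 2 and J/B replicates 1 and 2. In the same order, 11 pan-neuronal genes, among them *Dcx* (71.7, 326, 193 and 468 CPM) and *Elavl4* (33.5, 129, 112 and 168 CPM), summed to 363, 1346, 1050 and 2111 CPM, trophoblast markers to 3583, 1851, 1925 and 1280 CPM and fibroblast markers to 2102, 1605, 884 and 2235 CPM. The order of the 4 libraries was the same for the 9 factors and the pan-neuronal genes, while the fibroblast markers were high in the libraries at both ends. Of the 8 fibroblast markers all rose between stages, from a summed 1.42 to 56.0 CPM in ESCs, with *Col3a1* at 524 to 1186 CPM and *Lum* at 40.7 to 148 CPM in NPCs. Of 13 markers of the ventral telencephalon 10 rose and *Lhx6* fell by 1.24 (37.7, 111, 70.5 and 132 CPM summed in NPCs). Of 12 for midbrain, hindbrain and spinal cord 9 rose and *Gbx2* fell by 2.78 (69.9, 178, 228 and 192 CPM), and their sum was highest in J/B replicate 1. Reads on no annotated feature made up 7.71%, 9.05%, 8.35% and 10.9% of the 4 libraries, which is the library order of the 9 factors, and their part in these levels was not tested. Whether the mix of cells accounts for the levels of the 9 factors was not tested.

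The balance of neuronal and progenitor factors also varied over the NPC libraries. On the scale of CPM per kilobase of summed exon length, *Tbr1*, *Bcl11b*, *Neurod6* and *Fezf2*, which belongs to both groups, together were at 0.763, 0.671, 0.411 and 0.967 times the level of *Pax6*, *Lhx2*, *Emx1* and *Emx2* in the 4 libraries. With the length of the canonical transcript in its place, these ratios were 0.576, 0.484, 0.260 and 0.744, in the same order. The length chosen mattered most for *Pax6* (16047 bases of summed exons and 5813 in its canonical transcript) and *Lhx2* (5284 and 2854 bases). With *Fezf2* counted among the progenitor factors instead, the ratios were 0.598, 0.389, 0.197 and 0.594, so that J/B replicate 1 was the lowest in each case and the highest library depended on where *Fezf2* was placed. The level of *Tbr1* per kilobase of summed exon length was 0.979, 0.799, 0.140 and 2.58 times that of *Pax6*, and these ratios also depend on the length chosen. In J/B, the 2 libraries with nearly equal *Pax6* levels thus differed most in *Tbr1* relative to it.

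With each of the 8 libraries left out in turn, the log2 fold change between stages ranged from 4.25 to 5.38 for *Lhx2*, from 5.48 to 8.62 for *Emx2*, from 2.23 to 4.57 for *Emx1* and from 1.12 to 2.92 for *Pax6*. It ranged from 5.10 to 6.61 for *Fezf2*, from -1.88 to -0.45 for *Eomes*, from 5.15 to 7.32 for *Tbr1* and from 2.37 to 3.92 for *Bcl11b*. The widest of these 8 ranges was that of *Emx2*.

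**Figure D4:**
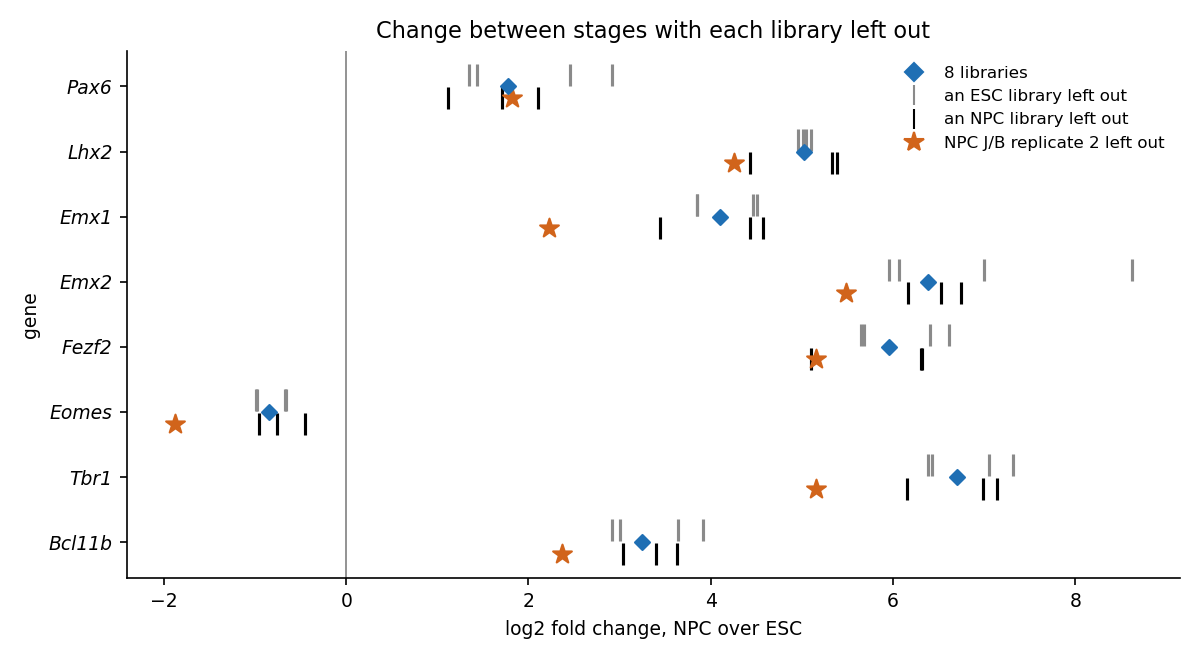
Log2 fold change of NPCs over ESCs (x axis) for 8 factors (y axis) with 8 libraries (blue diamonds) and with each ESC library (grey bars), each NPC library (black bars) or NPC J/B replicate 2 (orange stars) left out; *Neurod6* has no finite fold change and is left out. Without J/B replicate 2 the estimate is lowest for *Lhx2*, *Emx1*, *Emx2*, *Eomes*, *Tbr1* and *Bcl11b*, and that of *Eomes* goes from -0.85 to -1.88.

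The other regulators of the same lineage were read from lists, which were chosen with earlier results of these data known. Of 15 further regulators of telencephalic progenitors, 14 rose and none fell, where 37.5% of all genes tested were called higher and 31.9% lower. Their median log2 fold change was 4.11, beside 0.17 over all genes. Genes close to 0 in ESCs, such as *Neurog2* (at most 0.113 CPM) and *Nr2f2* (at most 0.177 CPM), had little room to fall. The orphan nuclear receptors *Nr2f2* (10.48, SE 0.363) and *Nr2f1* (8.33, SE 0.418), which pattern the cortex along its axes, and the proneural gene *Neurog2* (8.89, SE 0.664) had the largest changes, with adjusted p of 9.20e-06, 1.18e-05 and 3.42e-05. *Otx2*, a gene of the early forebrain, had 1.25, 22.8, 0.932 and 22.6 CPM in ESCs and 24.3 to 73.3 CPM in NPCs (log2 fold change 1.54, adjusted p = 0.190).

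Of 18 further regulators of cortical projection neurons, 14 rose, 1 fell and 3 did not pass, with a median of 2.73. The same shares over all genes, 37.5% higher and 31.9% lower, stand beside these counts. A gene without a count in ESCs could only rise. *Nhlh1*, a gene of newly born neurons, had no count in ESCs and 16.5 to 50.3 CPM in NPCs. *Neurod2*, the close relative of *Neurod6*, had 1.14, 2.14, 1.10 and 24.7 CPM in NPCs, and was highest in J/B replicate 2 as *Neurod6* was. *Foxp2*, a gene of deep-layer neurons, rose by 7.03 (SE 0.554, adjusted p = 4.04e-05). *Tle4*, a corepressor found in layer 6, fell by 2.09 on the log2 scale, from 160 to 188 CPM in ESCs. Of the 11 pan-neuronal genes, 9 rose and *Stmn2* fell by 1.51 on the log2 scale. *Slc17a6*, the vesicular glutamate transporter of young cortical neurons, was at 5.87 to 48.3 CPM in NPCs, while *Slc17a7*, that of mature ones, was at 1.20 to 5.54 CPM (log2 fold change -0.52, adjusted p = 0.432).

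For each factor, the genes with the most similar pattern were sought among all tested genes as Pearson's r of log2 CPM over the 8 libraries, which share their stage, depth and cell mix. The values are descriptions, and with 2 stages most of such an r comes from the step between them. *Neurod6* was closest to *Neurod2* (r = 0.997) and *Slc15a2* (0.995), *Tbr1* to *Grm7* (0.996) and *Lingo2* (0.993), *Lhx2* to *Nr2e1* (0.998), a progenitor nuclear receptor, and *Marchf1* (0.997), *Fezf2* to *Olfm3* and *B3galt1* (both 0.997), *Emx2* to *Cttnbp2nl* (0.997) and *Amy1* (0.996), and *Bcl11b* to *Cbln2* and *Rspo3* (both 0.993). Of these partners, *Grm7*, *Lingo2*, *Slc15a2* and *Olfm3* had low means of 0.307, 0.351, 0.415 and 0.639 CPM over the 8 libraries. *Emx1*, *Pax6* and *Eomes* had less close partners, apart from a gene of similarly low level for *Pax6*. *Emx1* was closest to *Anks3* (0.977) and *Wdr47* (0.971), *Pax6* to *1700123M08Rik* (0.997, mean 0.313 CPM) and *Zfp512* (0.950), and *Eomes* to *Relch* (0.945) and *Slc4a10* (0.940).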

How the data were processed

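PolyA RNA of ESCs and of day 12 NPCs was sequenced as paired ends in 2 libraries for each of the 4 groups, and groups were taken from the sample titles. Per the study's methods and the submitters' processing notes, the authors aligned reads to mm39 (GRCm39) with strain variants masked, using TopHat2, kept proper pairs with a filter on mapping quality, and counted reads per gene, with HTSeq, DESeq2 and edgeR also named in the notes without versions. Either of 2 kits (TruSeq Stranded or NEBNext Ultra II) and either of 2 sequencers were used, and no source used here says which library had which. The deposited values are raw counts per gene, not normalized and summed over both alleles. The 5 closing entries for reads without a gene were left out of all totals, and reads on no annotated feature were 5.76% to 10.9% of a library.

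The counts were tested with edgeR 4.0.16 in R 4.3.3 (TMM factors, filterByExpr with a minimum count of 10, robust quasi-likelihood fit of 4 group means, common dispersion 0.113), and adjusted by the Benjamini-Hochberg method over 16399 genes. limma 3.58.1 and DESeq2 1.42.0 served as alternatives. The other alternatives were other scalings, no filter or one on a mean of 1 CPM, a fit without robust estimation, a replicate block, only the libraries compared, and each library left out. A block within each stage and the libraries numbered 1 or 2 alone were added after seeing the data. *Pax6* was also set against the geometric mean of the reference genes *Gapdh*, *Gusb* and *Tbp* and tested with exact permutations. Ratios of pooled counts have exact 95% intervals, and a count of 0 was given a floor of 3 counts, both for counting error only. The tests were checked on simulated data. The 9 genes and all lists were chosen with earlier results of these data known. Named from the 2 lists of further regulators were the 3 largest called changes at a mean of at least 1 CPM and genes against the direction, together with the 2 genes most like each factor, overlapping genes, stage checks and reference genes. From the other marker lists, some of the largest changes are named and the rest is given as counts and sums. Other genes of the lists (*Reln*, *Trp73*, *Elf5*, *Cdx2*, *Rax*, *Tcf7l2*, *Crx*, *Wt1*, the lymphocyte genes, *Slc17a7* and *Foxa2*) were named as defining markers after their values were seen. Python 3.11.15 drew the figures. Allelic expression was not analysed here, and some genes of the lists are not reported here by name.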

Additional observations from a re-analysis of the deposited data

Results flagged for a closer look

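Each of the 9 factors was checked in the 4 ESC and in the 4 NPC libraries for a single library far from the rest, which gave 17 groups of 4 that could be checked, since *Neurod6* had no count in ESCs. In 4 of them the gap between the highest library and its nearest neighbour, divided by the whole range, exceeded Dixon's critical value at the 95% level. For normally distributed values chance gives this in about 1 of 20 groups, and CPM on a linear scale need not be so distributed. The groups are also not independent checks, since the 9 genes were read in the same libraries and varied together. In all 4 the library was NPC J/B replicate 2. *Neurod6* was at 21.5 CPM there (gap over range 0.972), *Emx1* at 10.5 CPM (0.891), *Emx2* at 28.7 CPM (0.862) and *Tbr1* at 42.6 CPM (0.845). The same library had the highest level of *Lhx2*, *Fezf2*, *Eomes* and *Bcl11b* without passing this limit, the highest sum of pan-neuronal genes and the highest share of reads on no annotated feature (10.9%). What sets it apart was not tested.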

How the results depend on the processing

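Of 521 recomputed changes of the 9 factors, 458 kept their direction and their side of the threshold, 28 lost their call, 30 gained one and 5 changed sign without being called. Between stages, *Lhx2*, *Emx2*, *Fezf2*, *Tbr1*, *Bcl11b* and *Neurod6* were called under all 20 alternatives, and the number of factors called was 6 to 8 in either direction (6 to 8 with a library left out). The 7 without NPC J/B replicate 2 were 6 higher and *Eomes* lower. Within B/J it was 5, 1 with limma-voom, and 0 to 7 with a library left out, and within J/B it was 5 to 7 with a library left out. Without NPC J/B replicate 2, the latter was 5 higher and *Eomes* lower. The 14 called progenitor regulators became 13 to 15 and the 15 projection neuron regulators 14 to 16 with a library left out. The sign changed for *Pax6* within B/J without NPC B/J replicate 2 (-0.59), and for *Eomes* within J/B with library totals (0.19), with the reference genes (0.54), without ESC J/B replicate 1 (0.07) or NPC J/B replicate 1 (0.49). With a library left out, the first ranged from -0.59 to 2.07 and the second from -2.38 to 0.49. The log2 difference of *Pax6* from the reference genes was 2.02 to 3.45 with a library left out (exact permutation p up to 0.171), and 3.40 (exact permutation p = 0.0286, the smallest possible) with *Rplp0* in place of *Gusb*. The cause of these changes was not tested.

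Libraries with the same replicate number deviated together within a stage (r over genes 0.52 in ESCs and 0.59 in NPCs) but not across stages (0.05 to 0.09), so the numbers do not pair ESCs with NPCs. With a replicate block, 7 factors were called between stages and 6 within B/J, and the *Pax6* change was 1.72 (adjusted p = 0.0743 from edgeR). A block within each stage left 7. Libraries numbered 1 alone gave 6 higher and *Eomes* lower (-1.92, adjusted p = 0.0166), with *Emx1* at 0.96 (adjusted p = 0.257), and those numbered 2 alone gave 8 higher. Of the further progenitor regulators, 10 were called in the libraries numbered 1 alone and 15 in those numbered 2 alone. For the projection neuron regulators these counts were 15 and 16. In ESCs, 5 of the 9 factors have at most 5 counts per library, so their ESC level is known only as close to 0.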
